A study of Homo sapiens with 16 samples.

Results

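HDGF peaks that were present in control cells, overlapped an HDGF peak in glucose-starved cells and met no INTS13 peak were examined in human HEK293T cells. A member is an interval of the HDGF control list on chromosomes 1 to 22 or X that shares at least 1 base with an HDGF starvation peak and no base with a peak of any of the 3 INTS13 lists. There were 8003 such intervals among 106673 HDGF control peaks. Of the control peaks as a whole, 22386 overlapped a starvation peak (21.0%), and 77772 had no INTS13 (72.9%). Among those without INTS13, 8003 of 77772 were kept in starvation (10.3%), and among the 28901 with INTS13, 14383 were kept (49.8%). The members were thus chosen by the peak calls of the 5 lists, so these counts, and the widths and strengths given below, are a description.

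Chromatin immunoprecipitation with sequencing (ChIP-seq) recovers the DNA bound by a protein through an antibody, and the series used it to ask whether starvation or loss of HDGF goes with a change in where INTS13 sits. HEK293T is an established line of human embryonic kidney origin, and the labels call its genotype wild type in every group. HDGF was precipitated with a Proteintech antibody from cells kept for 24 h in medium without glucose and from cells given a control depletion. INTS13 was precipitated from starved cells (24 h, Proteintech antibody), from cells treated for 72 h with pooled small interfering RNAs against HDGF (Bethyl antibody) and from control-depleted cells (Bethyl antibody). The labels do not say whether the starved cells also received a control depletion. The labels give 2 replicates for each group, but the authors deposited 1 list per group, so the spread between replicates is unknown and conditions could not be tested against each other. The lists of starved and control cells held 68115 and 106673 HDGF peaks on the chromosomes used, and those of starved, depleted and control cells held 15614, 105975 and 31208 INTS13 peaks. Intervals given in parentheses after a share are exact (Clopper-Pearson) 95% intervals. They cover counting error only and are likely too narrow, because peaks cluster along the genome and are not independent.

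HDGF is a chromatin protein whose PWWP domain binds nucleosomal DNA together with methylated lysine 36 of histone H3, a mark laid down over the bodies of transcribed genes. INTS13 is a subunit of Integrator, a complex that cleaves nascent RNA at small nuclear RNA genes and at promoter-proximal RNA polymerase II. HDGF peaks that persist without INTS13 are thus places where one of the proteins was found under both feeding conditions and the other was not called.

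Promoters of 6 genes are printed, the ones among the named start-site genes whose HDGF summits lay nearest to the promoter window in both lists. Each runs from 250 bases before to 50 bases after a RefSeq start on GRCh38.p14, 5′ to 3′ on the strand of the gene. Capitals mark matches, on either strand, to any of 9 motifs searched: the TATA box (TATAAA), the CCAAT box (CCAAT), the GC box (GGGCGG), the E-box (CACGTG), the ETS core (CCGGAAG), part of the NRF1 site (GCGCATG), YY1 core (AAGATGG), CRE core (TGACGT) and C/EBP-ATF core (TGATGCA).
B4GALT3 (chr1:161177919-161178218, minus strand): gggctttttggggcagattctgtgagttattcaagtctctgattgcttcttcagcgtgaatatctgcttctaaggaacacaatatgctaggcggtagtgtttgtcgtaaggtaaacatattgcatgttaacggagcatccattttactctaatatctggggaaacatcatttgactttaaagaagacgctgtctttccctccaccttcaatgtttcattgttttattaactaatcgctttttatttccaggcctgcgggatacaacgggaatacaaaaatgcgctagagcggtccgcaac
LIMK2 (chr22:31248134-31248433, plus strand): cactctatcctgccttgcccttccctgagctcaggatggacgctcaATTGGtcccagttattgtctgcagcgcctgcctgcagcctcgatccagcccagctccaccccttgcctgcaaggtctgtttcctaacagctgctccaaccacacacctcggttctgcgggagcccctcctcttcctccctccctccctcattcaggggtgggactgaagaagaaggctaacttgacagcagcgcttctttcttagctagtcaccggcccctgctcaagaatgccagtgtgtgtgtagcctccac
AKT1 (chr14:104793552-104793851, minus strand): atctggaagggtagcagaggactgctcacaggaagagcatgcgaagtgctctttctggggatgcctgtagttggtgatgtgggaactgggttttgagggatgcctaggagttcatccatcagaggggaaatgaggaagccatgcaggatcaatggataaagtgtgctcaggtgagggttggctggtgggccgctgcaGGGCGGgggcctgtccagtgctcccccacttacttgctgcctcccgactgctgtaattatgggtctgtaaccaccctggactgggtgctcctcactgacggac
SLC1A5 (chr19:46784765-46785064, minus strand): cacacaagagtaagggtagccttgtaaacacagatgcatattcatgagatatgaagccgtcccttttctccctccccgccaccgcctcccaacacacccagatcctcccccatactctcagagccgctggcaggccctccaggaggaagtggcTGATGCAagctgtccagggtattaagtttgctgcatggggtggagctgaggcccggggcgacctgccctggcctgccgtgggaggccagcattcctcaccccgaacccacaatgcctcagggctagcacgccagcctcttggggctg
SYNGR1 (chr22:39363897-39364196, plus strand): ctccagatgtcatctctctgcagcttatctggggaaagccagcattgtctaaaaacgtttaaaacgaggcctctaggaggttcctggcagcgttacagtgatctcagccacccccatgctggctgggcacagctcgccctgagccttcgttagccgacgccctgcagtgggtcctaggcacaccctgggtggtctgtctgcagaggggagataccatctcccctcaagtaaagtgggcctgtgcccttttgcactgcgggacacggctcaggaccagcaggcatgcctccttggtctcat
AGAP3 (chr7:151085617-151085916, plus strand): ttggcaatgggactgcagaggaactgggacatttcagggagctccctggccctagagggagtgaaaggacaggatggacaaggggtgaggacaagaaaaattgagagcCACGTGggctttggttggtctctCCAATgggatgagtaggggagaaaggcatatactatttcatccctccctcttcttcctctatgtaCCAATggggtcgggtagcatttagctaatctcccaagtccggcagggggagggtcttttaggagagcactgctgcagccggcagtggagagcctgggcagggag

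At B4GALT3, a galactosyltransferase gene, the control interval covered all 300 printed bases. Its starvation summit lay 4 bases downstream of the start and its control summit 67 bases upstream, with folds over background of 3.43 in starvation and 3.90 in control. The end of PPOX, the gene of a heme synthesis enzyme on the other strand, lay 22 bp from the control summit, so the peak cannot be given to either gene. At LIMK2, which encodes a kinase that acts on the actin regulator cofilin, the interval also covered the whole window, with summits 145 and 51 bases downstream in starvation and control (folds 2.98 and 4.29). The LIMK2 window holds a CCAAT box read on the opposite strand (ATTGG), and that start is an internal one of the gene. AKT1, a kinase of insulin signalling, SLC1A5, a glutamine transporter, and SYNGR1, a synaptic vesicle protein, likewise had their nearest summits at internal starts. The starvation summit lay 209 bases upstream of the AKT1 start, 178 bases downstream of the SLC1A5 start and 39 bases upstream of the SYNGR1 start. Control summits were 356 bases upstream, 177 downstream and 434 upstream of the same starts. AGAP3, a regulator of Arf GTPases, had its starvation summit 56 bases downstream of its outermost start and its control summit 457 bases upstream. The control interval covered 237 of the printed bases at AKT1 and 134 at SLC1A5. At SYNGR1 and AGAP3 the control interval ended upstream of the printed window and covered none of it, whereas the overlapping starvation peak covered it. The AGAP3 window holds 2 CCAAT boxes and 1 E-box, that of AKT1 holds 1 GC box and that of SLC1A5 holds 1 C/EBP-ATF core, whereas the windows of B4GALT3 and SYNGR1 hold none of the 9 motifs.

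Summits of the kept INTS13-free peaks lay at protein-coding starts more often than those of INTS13-free peaks called in control only. Within 1 kb of any of 22132 RefSeq starts lay 381 of 7949 member summits (4.79%, 4.33 to 5.29), 382 of 14369 summits of peaks kept with INTS13 (2.66%, 2.40 to 2.93) and 1361 of 68779 summits of INTS13-free peaks found in control only (1.98%, 1.88 to 2.09). HDGF starvation peaks with neither HDGF in control nor INTS13 stood at 5.28% (5.04 to 5.53). Starts on chromosome 8 were not used here, which sets aside 54 members. The member share was above the control-only share on 22 of 22 chromosomes, and above the share of peaks kept with INTS13 on 17 of 22. Within 250 bp of a start the shares were 0.70% (0.53 to 0.91) of members and 0.22% (0.18 to 0.26) of control-only peaks. Of the 381 members, 313 had their starvation summit within 1 kb of a start too, and 228 lay at the outermost start of a gene.

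Members also differ from control-only peaks in width, strength and place. When the control-only peaks were weighted to the members' distribution over 5 Mb bins, their start share was 1.96%, and it was 1.93% when weighted by chromosome, 1.90% by width and 2.01% by fold. Peaks kept with INTS13 came to 4.48% when weighted by bin (bins covering 96.5% of members) and to 2.88% by width. The difference between members and peaks kept with INTS13 was thus mostly gone within the same bins, whereas that between members and control-only peaks was as wide as before. In each of 5 width classes and 5 fold classes the member share exceeded the control-only share. The widest class had the lowest values of the width classes, 2.94% of 1123 members and 1.22% of 2788 control-only peaks. The INTS13-free control peaks were also put in 5 groups of equal size by the number of starvation peaks in their 5 Mb bin. From the sparsest to the densest group, 10.8% (6.97 to 15.8), 7.10%, 6.03%, 4.83% and 3.21% (2.62 to 3.88) of members lay at a start, which were 23 of 213 members in the sparsest group and 102 of 3177 in the densest. The control-only shares were 2.39% (2.15 to 2.65), 2.43%, 1.89%, 1.97% and 1.07% (0.893 to 1.26) and did not fall at every step. The part of density in the result was not tested.

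Around a start the control summits formed a trough with higher shoulders. In the 250 bp on each side of the start, control summits of members had a density of 1.51% per kb upstream and 1.31% per kb downstream, and the highest density was 4.76% per kb, between 1000 and 1500 bp downstream. Starvation summits of the same members filled the trough more, with 2.42% per kb in the 250 bp upstream and 1.81% per kb in the 250 bp downstream. Between 250 and 500 bp upstream the order was reversed, with 1.61% per kb for starvation summits and 2.72% for control summits. The starvation summits had a like maximum of 4.78% per kb at 1000 to 1500 bp. Within 250 bp of a start lay 84 starvation summits (1.06%, 0.84 to 1.31) and 56 control summits (0.70%, 0.53 to 0.91) of the 7949 members. These intervals overlap. Among the 474 members with either summit within 1 kb, the starvation summit was the nearer to its start in 273 (57.6%, 53.0 to 62.1).

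**Figure D1:**
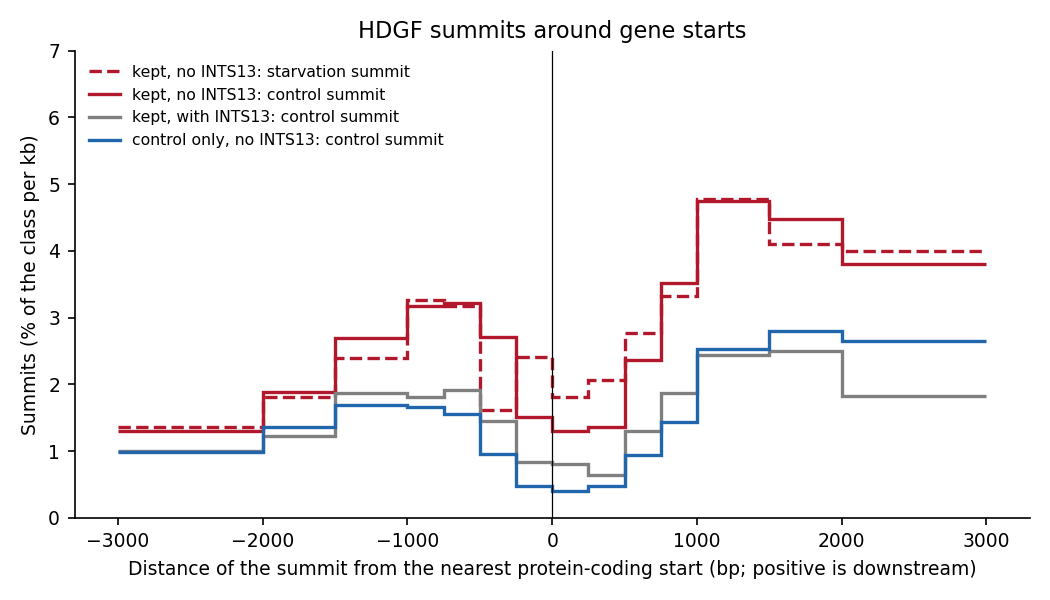
Density of HDGF summits (percent of the class per kb) by distance from the nearest protein-coding start in bp, positive downstream, for starvation and control summits of the kept INTS13-free peaks, for kept peaks with INTS13 and for control-only peaks without INTS13. Members lie above control-only peaks in every step shown. The control-summit lines dip around the start, with 1.51% per kb for members in the 250 bp upstream. The starvation line of members stands at 2.42% per kb there and is lower, 1.61% per kb, between 250 and 500 bp upstream.

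The members at starts touched 371 of 15812 protein-coding genes (2.35%), whereas control-only INTS13-free peaks touched 1240 (7.84%). The strongest stood at POLG, the mitochondrial DNA polymerase, at chr15:89332025-89333553, with folds of 4.33 in starvation and 5.07 in control and summits 76 bp apart. POLG shares its transcript with POLGARF, an overlapping reading frame, and the start used there belongs to POLGARF, so the genes cannot be separated. At CSK, a kinase that restrains Src family kinases, the folds were 3.88 in starvation and 4.68 in control at chr15:74786461-74788402. At INO80C, a subunit of the INO80 chromatin remodelling complex, they were 3.88 and 4.16, and at SUN2, a nuclear envelope protein, 2.54 and 4.03. A peak upstream of SRSF4, a splicing factor, had folds of 3.07 in starvation and 4.03 in control and lay inside the neighbouring gene MECR. Others of the 12 strongest by control were TMEM187, STMP1 and MYL11 with LIMK2, B4GALT3, AKT1 and AGAP3.

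Ranked by the starvation list, the start-site genes after POLG included SQSTM1, the autophagy receptor p62, and NDUFB10, a subunit of respiratory complex I, each with a fold of 4.33 in starvation and folds of 3.12 and 2.86 in control. NR2F2, a nuclear receptor, had 4.24 in starvation and 2.73 in control, and SLC1A5 had 4.15 and 3.12. SLC19A1, the reduced folate carrier, had 4.15 in starvation and 3.51 in control. At several of these the starvation peak was long and its summit lay away from the control one: at SQSTM1 the control interval of 1000 bp met a starvation interval of 2506 bp whose summit was 1645 bp away, and at TRIM17, a ubiquitin ligase, an interval of 229 bp met one of 3607 bp. At NDUFB10 and SLC1A5 the summits were 17 bp and 1 bp apart. The remaining genes by this ranking were TMUB1, ACOT11, A3GALT2, SYNGR1 and EPB41.

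Median GC content of the 300 bases was 65.0% at the 443 starts within 1 kb of a member (quartiles 58.3 to 72.0), 61.0% at 1478 starts near control-only peaks and 62.3% at all 22132 starts. It was 63.3% at 418 starts near peaks kept with INTS13 and 65.7% at 1841 starts near starvation-only peaks. A GC box was found in 64.8% (60.1 to 69.2) of the member promoters, 60.5% of those near peaks kept with INTS13, 66.6% near starvation-only peaks, 56.4% near control-only peaks and 56.3% of all. In the same order the CCAAT box was in 25.7% (21.7 to 30.1), 31.8%, 28.5%, 34.6% and 34.6%. TATAAA was in 5.87% (3.87 to 8.48) of member promoters, 4.55% near peaks kept with INTS13, 5.59% near starvation-only peaks and 9.46% of all. The departures of member promoters from all promoters in GC content and in these 3 motifs were thus shared by promoters near starvation-only peaks. CACGTG was in 9.03% of member promoters and 8.34% of all. The other 5 motifs were found, in member promoters and in all promoters, at 13.8% and 12.8% for the ETS core, 7.0% and 5.26% for the part of the NRF1 site, 6.09% and 6.05% for the YY1 core, 9.26% and 8.92% for the CRE core, and 2.26% and 2.13% for the C/EBP-ATF core, each inside the exact interval of the member share. Each motif was counted by itself on both strands, also where it overlapped another, and a match is a run of letters and not a bound site.

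Most members lay in gene bodies. A protein-coding gene held 5859 of 8003 member summits (73.2%, 72.2 to 74.2), 54.4% of summits kept with INTS13 and 74.3% of control-only summits. Weighted to the members' 5 Mb bins, peaks kept with INTS13 came to 72.0% and control-only peaks to 72.2%, so the gap to the peaks with INTS13 was not seen within the same bins. The genes were shorter than those of control-only peaks. Each summit inside genes of known strand was given to the longest of them. Median gene length was then 56.6 kb for members (n = 5031), 69.5 kb for peaks kept with INTS13, 57.0 kb for starvation-only peaks and 98.8 kb for control-only peaks. Genes over 100 kb held 33.3% of the members and 49.4% of the control-only peaks.

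Along the gene, members were spread more evenly than control-only peaks. With each gene divided from start to end in 10 equal parts, the part at the end held 12.4% of members (11.5 to 13.4), 12.5% of peaks kept with INTS13, 16.5% of starvation-only peaks and 8.90% of control-only peaks. The part at the start held 11.9% of members (11.1 to 12.9), 11.4% of peaks kept with INTS13, 8.82% of starvation-only peaks and 14.1% of control-only peaks. The 5 parts nearest the end together held 49.9% of members (48.5 to 51.3) and 43.9% of control-only peaks (43.5 to 44.4). The same order was seen in genes under 30 kb (47.7% and 44.0%), of 30 to 100 kb (49.6% and 43.2%) and over 100 kb (52.4% and 44.4%). Starvation-only peaks were placed further toward the end, with 59.1% (58.4 to 59.8) in those 5 parts.

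**Figure D2:**
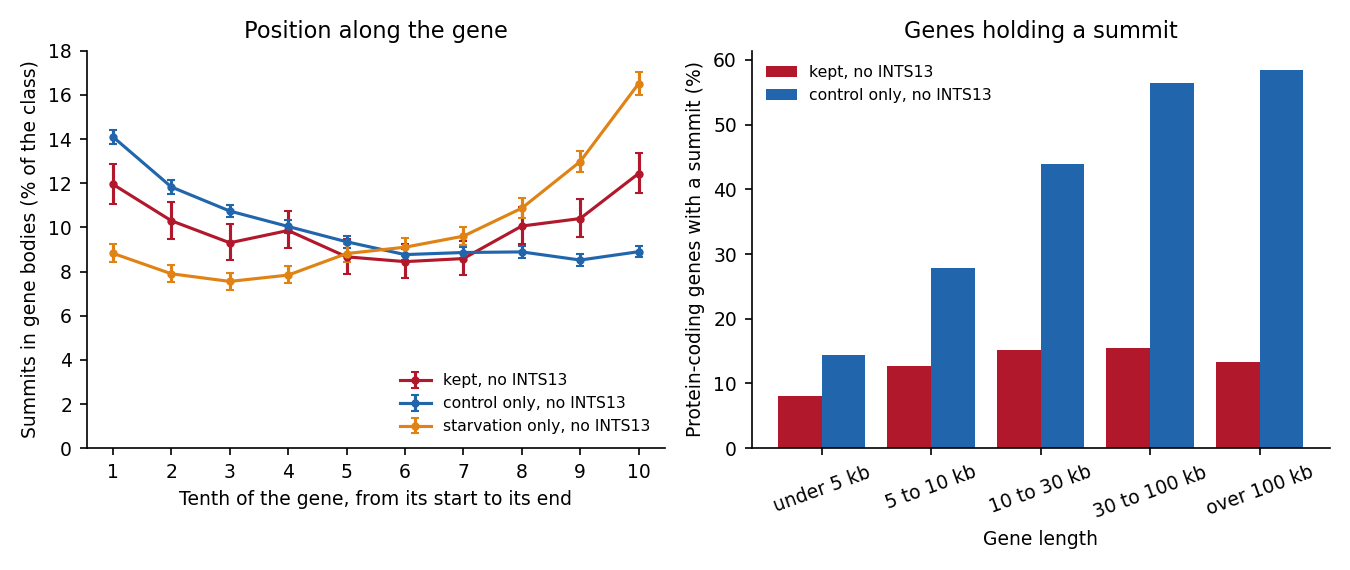
Left, percent of summits in each of 10 equal parts of the gene from start to end (bars, exact 95% intervals) for kept, control-only and starvation-only peaks without INTS13; the member line is highest at the end, 12.4%, and between the other lines there. Right, percent of protein-coding genes with a summit inside or within 1 kb, by gene length in kb, for kept and control-only peaks without INTS13: members range from 8.10 to 15.5% and control-only peaks from 14.4 to 58.5%.

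Of 19974 protein-coding genes, 2699 held a member summit inside or within 1 kb (13.5%) and 8610 a control-only summit (43.1%). Members touched 8.10% of genes under 5 kb, 12.7% of those of 5 to 10 kb, 15.2% of 10 to 30 kb, 15.5% of 30 to 100 kb and 13.3% of over 100 kb. For control-only peaks, the shares were 14.4%, 27.9%, 43.8%, 56.5% and 58.5%. Length thus changed the member share little above 10 kb, while the control-only share kept rising to 100 kb.

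A small set of genes held many members. For this count, each of the 5031 members inside a gene of known strand was given to the longest such gene. Genes without a known strand, such as MCM5, were thus left out. Of the 2007 genes so counted, 1057 had 1 member and 60 had at least 10, and those 60 held 967 members. KLF12, a transcription factor gene of 620 kb on chromosome 13, held 45 members and 208 control-only peaks. NFIA, a transcription factor on chromosome 1, held 33 and 144, and DACH1 and GPC6 on chromosome 13 held 31 each, with 191 and 306 control-only peaks. In these long genes the members were a minority, 9.20% to 18.6% of the INTS13-free control peaks of the gene. BCR on chromosome 22, the gene of the breakpoint cluster region, had the opposite balance with 33 members and 16 control-only peaks (67.3% kept). MED15, a Mediator subunit, held 18 members and 8 control-only peaks (69.2%), and TLE3, a transcriptional corepressor, held 13 and 7 (65.0%). AP1B1, a clathrin adaptor subunit, held 13 and 8, DNAJB6, a chaperone, held 14 and 13, and AGAP3 held 11 and 0, beside 29 kept peaks with INTS13. PRKAG2, the gamma-2 subunit of the energy sensor AMPK, held 25 members and 52 control-only peaks (32.5%).

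In 8 of the 13 gene lists the share of genes with a member was above the 13.5% of all protein-coding genes. These were the lists of ribosomal proteins, stress response, glucose use, H3K36 methylation, the HDGF family, AMPK and mTOR signalling, Integrator and the cell cycle, and no list was tested. Of 60 cytosolic ribosomal protein genes, 28 had a member (46.7%) and 35 a control-only peak (58.3%, against 43.1% of all genes). Their median length was 5.09 kb, and genes under 5 kb as a whole had a member in 8.10%. In 4 of the 28 a member lay within 1 kb of a start. At RPS12 the strongest member had folds of 2.72 in starvation and 4.29 in control and lay 60.3% of the way along the gene, at RPLP1 3.79 and 4.03 and 64.5%. At RPL28 the folds were 3.34 and 4.03 and at RPL10A 3.16 and 3.90. These genes have many near-identical pseudogenes, and how reads with several matches were placed is not given in the sources used here, so single ribosomal protein values are uncertain.

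Genes of the integrated stress response and amino acid supply had a member in 13 of 30 (43.3%) and a control-only peak in 18 (60%). STC2, a secreted glycoprotein induced by stress, held the strongest, at chr5:173319296-173322662, with folds of 3.61 in starvation and 4.55 in control. CTH, a cysteine synthesis enzyme, had 2.72 in starvation and 4.29 in control. SLC7A5 and SLC3A2, which form an amino acid transporter, held 9 and 2 members, the strongest with folds of 3.88 and 3.16 in starvation and 3.90 and 3.77 in control. Single members were also present at DDIT3, a stress-induced transcription factor gene, near its start, and at DDIT4 and CEBPB, beyond the gene end at both.

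Genes of glucose uptake and use had a member in 14 of 33 (42.4%) and a control-only peak in 24 (72.7%). The glycolytic enzyme genes ENO1, PFKL, TPI1 and GAPDH held 4, 5, 2 and 4 members. Their strongest members had starvation folds of 2.81, 4.42, 3.16 and 3.25 and control folds of 3.77, 3.51, 3.51 and 3.25, in the same order of genes. TKT, the transketolase of the pentose phosphate pathway, held 7 members and PKM, pyruvate kinase, 6. The glucose transporter gene SLC2A1 held 1 with a control fold of 2.34, near the lowest fold of any member (2.21).

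Among 25 genes of AMPK and mTOR signalling, 9 had a member (36%) and 23 a control-only peak (92.0%). After PRKAG2, RHEB, the GTPase that activates mTORC1, held 8 members, TSC2, which restrains RHEB, held 6, and STK11, the kinase that activates AMPK, held 5. At TSC2 the member of chr16:2087779-2088010 was 232 bp wide and lay in a starvation peak of 10457 bp with a fold of 4.78. AKT1S1, an inhibitory subunit of mTORC1, held 1 member with folds of 3.07 in starvation and 3.90 in control.

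Writers, erasers and readers of H3K36 methylation had a member in 11 of 26 genes (42.3%) and a control-only peak in 23 (88.5%). NSD1, a methyltransferase of that lysine, held 8, and BRPF1, a PWWP protein of histone acetyltransferase complexes, held 3, the strongest with folds of 2.98 in starvation and 3.90 in control. HDGF itself held 1 member, at chr1:156747496-156748536 and 77.3% of the way along the gene, with folds of 4.42 in starvation and 4.03 in control and summits 69 bp apart. HDGFL3, a relative, held 1 with folds of 2.90 and 2.73. The other 3 genes of that family list had none. The Integrator list of 19 genes is not limited to genes with an INTS name. Of these, 6 had a member (31.6%), INTS14, NABP2, INTS11, INTS15, INTS5 and BRAT1, and 13 a control-only peak (68.4%).

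Cell cycle genes had a member in 8 of 34 (23.5%) and a control-only peak in 28 (82.4%). MCM5, a subunit of the replicative helicase on chromosome 22, held 12 of their members, and CDT1, a replication licensing factor, held 4. Immediate early genes, which respond to signals within minutes, had a member in 3 of 32 (9.38%, DUSP1, KLF6 and SRF) and a control-only peak in 12 (37.5%). None of 18 small nuclear RNA genes, the classical Integrator targets, had a member or a control-only peak. Their median length was 0.14 kb, against 24.2 kb for all protein-coding genes, so the shares of all protein-coding genes are no base for them. With so few short genes, nothing is read from their lack of peaks. Markers of other tissues had no member: 0 of 16 liver genes, 0 of 16 neuron and glia genes and 0 of 18 blood genes, with control-only peaks at 2, 5 and 3. Genes of a list differ in length and region from all genes, and the part of length and region in these shares was not tested.

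**Figure D3:**
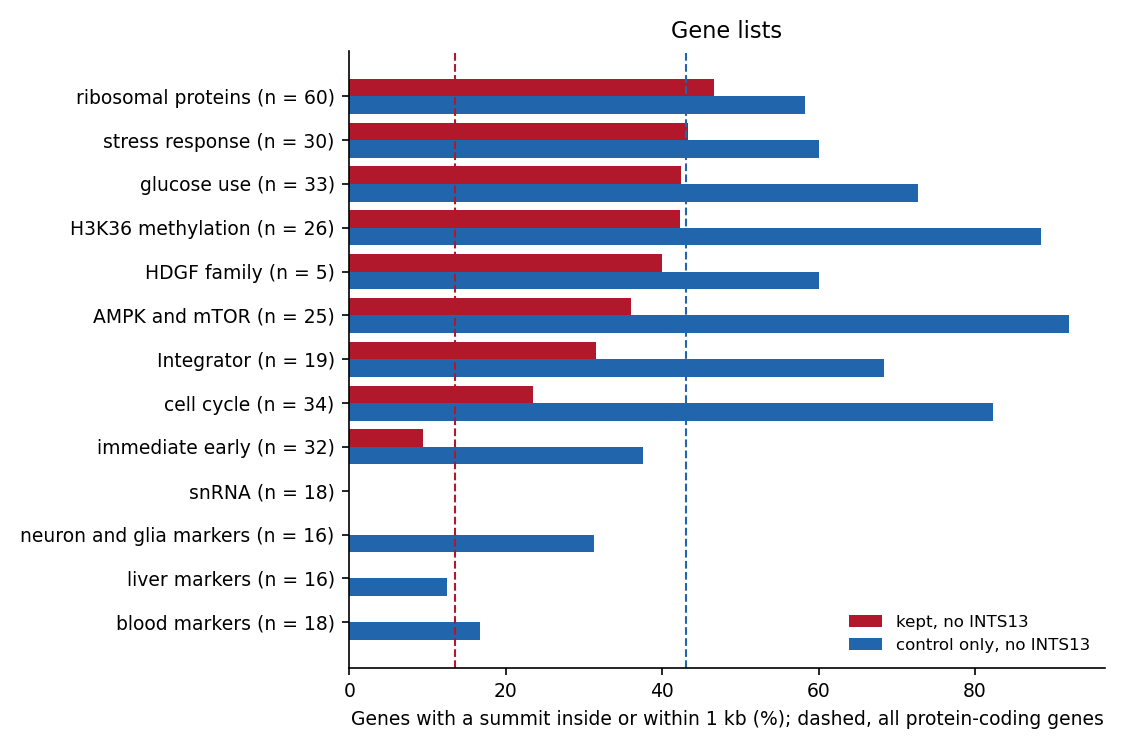
Percent of the genes in each of 13 lists (n, genes in the list) with a summit inside or within 1 kb, for kept and control-only peaks without INTS13; dashed lines mark all protein-coding genes, 13.5% and 43.1%. Ribosomal protein genes have the highest member share (46.7%), and the small nuclear RNA, liver, neuron and glia, and blood lists have none. The dashed lines are no base for the small nuclear RNA genes, whose median length is 0.14 kb.

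The members were spread unevenly over the chromosomes, as were all 106673 HDGF control peaks from which they were drawn. Chromosome 1 held 24.6% of members, 28.1% of all HDGF control peaks and 10.3% of protein-coding genes. For chromosome 13 these shares were 9.22%, 10.8% and 1.69%, and for chromosome 22 they were 11.3%, 5.25% and 2.26%. Of these 3 chromosomes, only chromosome 22 thus held a higher share of the members than of all control peaks. The X chromosome held 1.94% of members, 2.62% of all control peaks and 4.25% of genes. Chromosomes 1, 13, 22 and X together held 47.1% of members (46.0 to 48.2), close to the 46.7% of all control peaks. They held 77.6% of peaks kept with INTS13, 25.6% of starvation-only peaks and 36.5% of control-only peaks. Chromosome 2 held 49 members (0.61%), beside 2374 control-only peaks, and chromosome 4 held 25. Of the INTS13-free control peaks, 24.2% (22.8 to 25.6) were kept on chromosome 22, 20.8% (18.9 to 22.9) on chromosome 19, 11.6% on chromosome 1 and 2.02% (1.5 to 2.67) on chromosome 2. DNA copy number along the genome was not analysed here. Its part in the counts by chromosome, by bin and by gene was not tested.

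**Figure D4:**
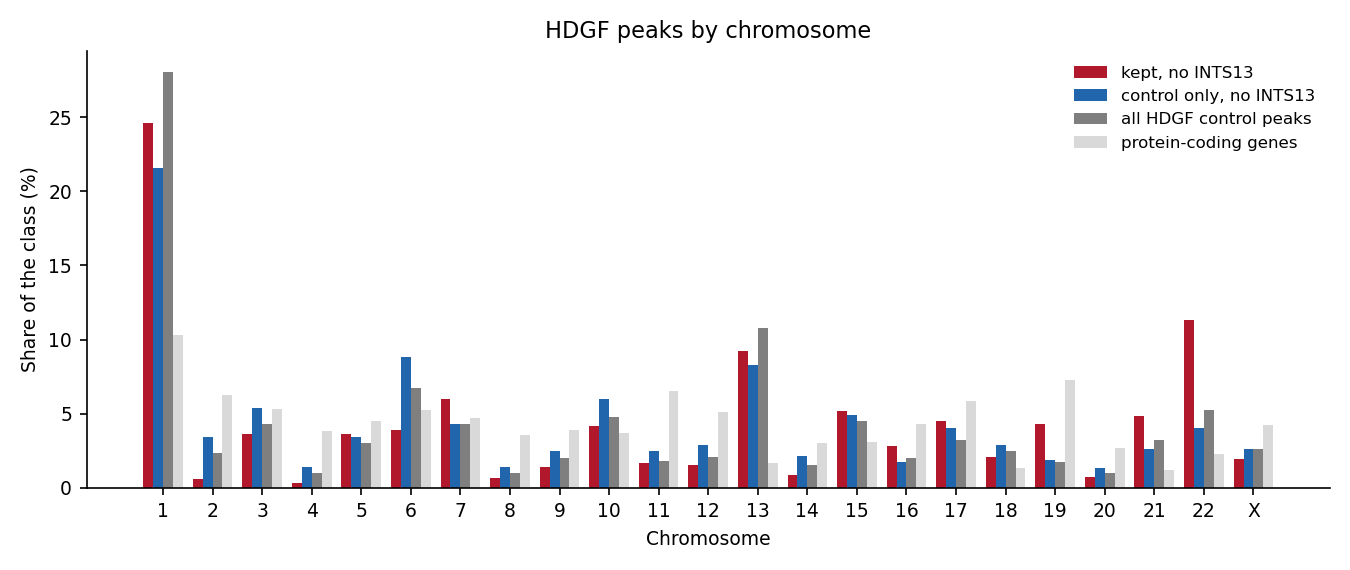
Share (%) of kept peaks without INTS13, control-only peaks without INTS13, all HDGF control peaks and protein-coding genes on each chromosome. Chromosome 1 holds 24.6% of the kept INTS13-free peaks and 28.1% of all HDGF control peaks, and chromosome 22 holds 11.3% and 5.25%.

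At 5 Mb resolution, 306 of 566 bins with an HDGF peak held a member, and the 20 fullest held 36.2% of members, 72.0% of peaks kept with INTS13, 21.98% of control-only peaks and 30.0% of all HDGF control peaks, each class by its own fullest bins. The fullest member bins were on chromosome 22 at 20 to 25 Mb (229 members, 439 control-only) and 35 to 40 Mb (220 and 380), then on chromosome 1 at 60 to 65 Mb (198 and 1217). The share kept moved with the number of starvation peaks in the bin. That number includes the starvation peaks by which control peaks count as kept, so a rise is built into the rule. In the 5 groups by that number, sparsest first, 1.39% (1.21 to 1.58), 5.36%, 9.27%, 15.0% and 20.4% (19.8 to 21.1) were kept. The part of this density in the count of members was not tested.

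Members were low and mostly narrow peaks. Their median width was 387 bp (quartiles 273 to 597, maximum 4327), with 638 bp for peaks kept with INTS13 and 307 bp for control-only peaks. The authors' fold enrichment at the control summit had a median of 2.86 (2.73 to 3.25, range 2.21 to 5.07), with 3.12 for peaks kept with INTS13 and 2.73 for control-only peaks. The 14518 HDGF control peaks with INTS13 that were not kept had the same medians and quartiles of width and fold as members. In each HDGF list every fold had 1 p-value, and fits of a single Poisson background per list gave 7.41 reads in starvation and 6.69 in control. The fold of an HDGF peak thus refers to 1 background for its whole list, with no sign of a correction by position. On these scales the members' summits held an estimated median of 23 reads in starvation (range 18 to 45) and 21 in control (range 16 to 38). A −log10 q of at least 10 was reached by 14 members, 601 peaks kept with INTS13 and 18 control-only peaks. Folds of the lists refer to different backgrounds, so a fold in starvation and one in control are given side by side and their difference is not read. Wider peaks were kept more often, 6.72% (6.40 to 7.06) of INTS13-free control peaks of 200 to 250 bp and 28.7% (27.3 to 30.2) of those over 800 bp. The part of width in the count of members was not tested.

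The strongest members by control −log10 q, after POLG, were a peak 4432 bp upstream of KLF12 (folds 2.81 in starvation and 5.07 in control) and peaks in NUP205, a nuclear pore gene (3.61 and 4.94) and PCDH9, a protocadherin gene (3.25 and 4.94). Others of the 8 lay at MRPS6 and SLC5A3, which overlap, at OBI1 and 899434 bp from any protein-coding gene on chromosome 13. Of the 8, 5 were on chromosome 13. Ranked by the starvation list the leaders were different intervals: weak control peaks under long starvation peaks in SNAP47 (starvation fold 5.49, control fold 2.86, starvation width 11785 bp), TBC1D10B (5.22, 2.99, 3981 bp), INO80E (5.22, 2.73, 5881 bp) and ITPKB (4.96, 3.25, 3867 bp). In HCFC1, a transcriptional coregulator gene on chromosome X, 3 members lay under a single starvation peak of 2270 bp with a fold of 4.96.

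Positions within the pairs were close but not identical. The starvation summit lay a median of 210 bp from the control summit (quartiles 99 to 397), within 250 bp for 4532 members (56.6%, 55.5 to 57.7) and 42.1% of peaks kept with INTS13, which are wider. Starvation peaks covered a median of 51.4% of the control interval and all of it in 1390 members (17.4%). Members in the 3 lower classes of control fold each had a median starvation fold of 2.90, and those with a control fold of at least 4.03 had 2.98. Both peaks of a pair had passed a threshold, which narrows the range of folds, so nothing is read from the likeness of these medians.

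At the edge of the rule, 738 members shared at most 50 bases with a starvation peak, and 691 INTS13-free control peaks that are not members had a starvation peak under 50 bases away. Both sets had a median control fold of 2.86. At the other edge, 478 members had an INTS13 peak under 50 bases away (median fold 2.99), and 517 kept peaks that shared at most 50 bases with INTS13 had 2.86.

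INTS13 was often near although it did not overlap. The gap to the nearest INTS13 peak of the 3 lists had a median of 0.822 kb for members and 2.66 kb for control-only peaks, and 55.3% and 28.7% had one within 1 kb. These are the lists by which overlap with INTS13 was excluded, and the gaps were not weighted by bin or width. The part of region and peak width in the difference was not tested. By list, 10.8% of members and 2.03% of control-only peaks had an INTS13 starvation peak within 1 kb, 48.5% and 25.6% an INTS13 peak of HDGF-depleted cells, and 16.6% and 7.27% an INTS13 control peak. The INTS13 starvation list came from another antibody, so in that list the effect of the antibody cannot be told apart from that of glucose withdrawal. A kept HDGF peak with INTS13 lay within 10 kb of 54.0% of members and 19.5% of control-only peaks. It did so for 56.7% of the HDGF control peaks with INTS13 that were not kept. In 1459 members (18.2%, 17.4 to 19.1) the overlapping starvation peak itself met an INTS13 peak outside the control interval, in 1171 of them one of HDGF-depleted cells and in 418 one of starved cells. Absence of a peak is a call at these depths and not a measured absence of INTS13 or, for control-only peaks, of HDGF in starvation.

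**Figure D5:**
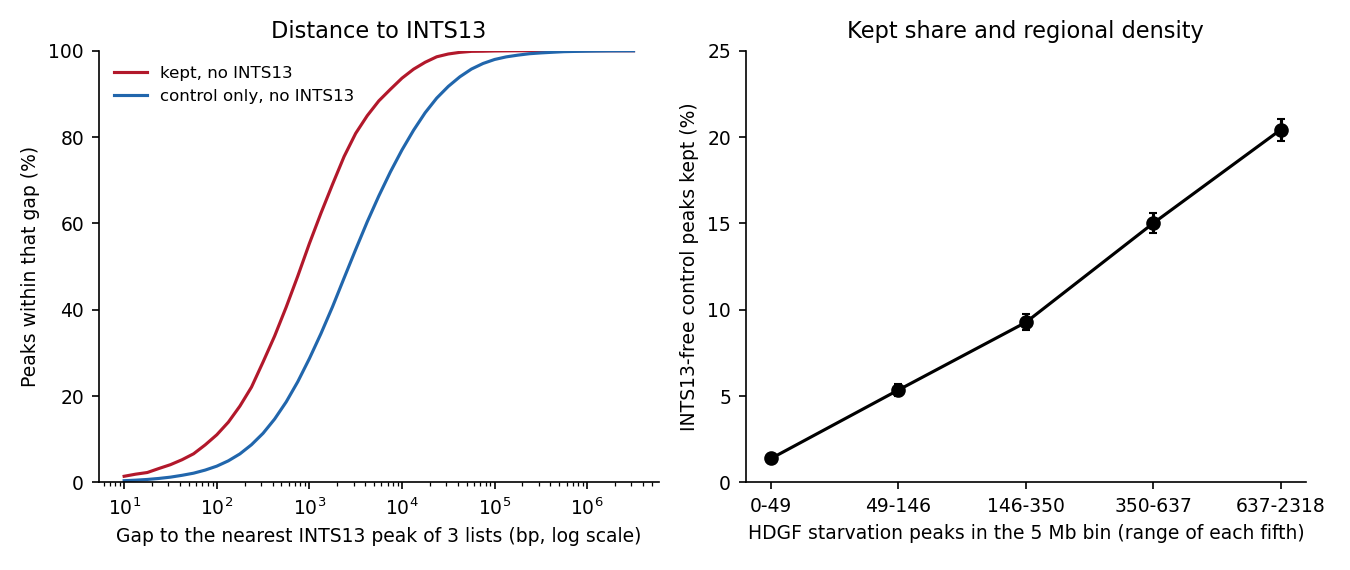
Left, percent of kept and control-only HDGF peaks without INTS13 whose nearest INTS13 peak lies within the distance on the log axis (bp); 55.3% of kept and 28.7% of control-only peaks have one within 1 kb. Right, percent of INTS13-free control peaks kept in starvation (bars, exact 95% intervals) against the number of starvation peaks in the 5 Mb bin, in 5 groups of equal size, with 1.39% in the sparsest and 20.4% in the densest. The starvation peaks counted include those by which control peaks count as kept.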

How the data were processed

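ChIP-seq of HDGF and INTS13 in HEK293T cells was deposited as 5 peak lists, 1 for each ChIP group of 2 labelled replicates. MACS2, Bowtie, Picard, FastQC and Trimmomatic were used with the build hg38, per the submitters' processing notes. Tool versions, the use made of the 6 input samples (not analysed here) and the way replicates were joined were not given in the sources used here. The deposited lists give for each peak an integer score (not used further), the authors' fold enrichment at the summit, a ratio to background, the authors' −log10 p and −log10 q values, and the deposited summit position. Depth is known only from the background that the fold and p-values imply.

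Members were found by overlap of at least 1 base, tested on simulated intervals. The paired starvation peak was the overlapping one of highest −log10 q. Starts came from a RefSeq promoter table of GRCh38.p14 that gives strand (15812 protein-coding genes, none on chromosome 8), and gene intervals from a RefSeq table. Classes were compared by shares with exact intervals and by weighting to the members' bins, chromosomes, widths or folds, with no test. Named are the 8 members of highest −log10 q in either HDGF list, the 12 start-site genes of highest −log10 q in either list and up to 4 genes of each of 13 lists by control −log10 q. Other genes were named after their values were seen: those with the most members, and further members of the lists. The members and lists were chosen with earlier results of these data known. Python 3.11.15, numpy 2.4.6, pandas 2.3.3 and scipy 1.17.1 were used. Alternatives were other overlap rules, a −log10 q of at least 2, lists of equal length, other rules on INTS13, other windows and fewer chromosomes. Shared starts and overlapping genes were each counted. Values of a few genes covered by the naming rule or met by members are not reported here.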

Additional observations from a re-analysis of the deposited data

How the results depend on the processing

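The number of members (8003) and the share of INTS13-free control peaks kept (10.3%) followed the overlap rule: 4119 and 5.30% with at least 50% of the interval covered, and 4857 and 6.25% with summits within 250 bp. They were 3576 and 6.70% with no INTS13 within 1 kb and 4237 and 8.73% without chromosomes 1, 13, 22 and X. With the control list cut to the starvation list's length the share was 12.4% and the median control fold 3.12, and without the INTS13 starvation list the share was 10.96%. The start share of members (4.79%) was 5.46% with 50% covered, 5.57% with no INTS13 within 1 kb, 6.17% without the 4 chromosomes, 1.72% and 14.6% with windows of 500 and 2500 bp, and 3.01% at outermost starts, an alternative added after the data were seen. Control-only peaks stood at 2.09%, 1.97%, 2.32%, 0.58%, 8.03% and 1.21% in the same order, below the members each time; all of these control-only values were also added after the data were seen. The share inside protein-coding genes (73.2%) was 78.3% with no INTS13 within 1 kb, 80.0% without the 4 chromosomes and 80.7% with all RefSeq genes. The share on the 4 chromosomes (47.1%) was 43.5% with 50% covered, 45.7% by summits, 49.0% with equal list lengths, 33.7% with no INTS13 within 1 kb and 48.4% without the INTS13 starvation list. The median summit distance (210 bp) was 149, 116, 217, 196 and 198 bp with 50% covered, by summits, with equal lengths, with no INTS13 within 1 kb and without the 4 chromosomes. The 116 bp was set low by its rule, which allows at most 250 bp and takes the nearest starvation summit. Causes of the other changes were not tested. The 22 other recomputed values stayed within their interval or, for counts, within 1.5 times. No paired analysis was possible because each group has 1 list for both replicates, and leaving out a replicate was not possible for the same reason. Depth limits the statements on absent peaks, since member summits held an estimated 16 to 45 reads by the fitted backgrounds.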

Other observations

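Members also met genes of small RNAs that are processed from introns. Of 1196 annotated small nucleolar RNA genes, which guide the modification of ribosomal and other RNAs, 19 overlapped a member (1.59%) and 70 a control-only peak (5.85%). Several sat in ribosomal protein genes: SNORA33, SNORD100 and SNORD101 in RPS12 under a single member (folds 2.72 in starvation and 4.29 in control), SNORD36A in RPL7A (2.63 and 3.12) and SNORD14B in RPS13 (2.36 and 2.86). Others lay in genes of the translation machinery, SNORD37 in EEF2, an elongation factor (3.25 and 2.73), and SNORD95 in RACK1, a ribosome-associated scaffold (3.25 and 3.25). SNORD29 lay in no protein-coding gene (2.81 and 3.90), nor did SNORA71A (2.54 and 3.38).

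Of 1911 microRNA genes, 13 overlapped a member (0.68%) and 44 a control-only peak (2.30%). MIR6805 and MIR7111 lay in RPL28 (folds 3.34 in starvation and 4.03 in control) and RPL10A (3.16 and 3.90), and MIR6882 in ULK3 (4.24 and 3.77). MIR150 lay in no protein-coding gene (3.25 and 3.25). A member overlapped 1 of 443 transfer RNA genes, TRC-GCA20-1, and none of 154 small nuclear RNA or 49 ribosomal RNA genes. Long noncoding RNA genes numbered 586 of 18177 with a member (3.22%) and 2653 with a control-only peak (14.6%). These RNA genes were chosen after their values were seen. No share of all genes by the same overlap is given beside these shares, and no set of host genes was tested.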
